A study of Mus musculus with 14 samples.

Results

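Mouse embryonic fibroblasts (MEFs) are primary connective tissue cells grown from embryos. MEFs that carried retroviruses for Sox2, Klf4 and Oct4 (SKO) were sampled on 6 days, from day 3 to 10, in medium with vitamin C. The 6 arrays of these cells, of 14 arrays in all, were chosen by their labels: SKO-transduced, Vc+, lysed on day 3, 4, 5, 6, 8 or 10. The comparison was between the 3 arrays of days 6, 8 and 10 and the 3 arrays of days 3, 4 and 5. The other arrays were 6 of SKO cells without vitamin C on the same days and 2 of cells with a GFP virus, lysed on day 3 with or without vitamin C. The GFP arrays were not used here. MEFs were infected in 2 rounds. From day 2 after the second round, cells of either arm were kept in mouse embryonic stem cell medium with serum and leukemia inhibitory factor, and the treated arm received 50 µg/ml vitamin C throughout. No Myc virus was among those named. Nothing in the labels gives the strain, sex or age of the embryos, and each day is 1 array of a whole culture, in which few or many cells may have begun to reprogram.

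Oct4 (encoded by Pou5f1), Sox2 and Klf4 can turn fibroblasts into induced pluripotent stem cells. On the way, cells lose mesenchymal features, gain epithelial ones such as E-cadherin, and switch on the cells' own pluripotency genes, with only a minority completing the change. Vitamin C is a cofactor of iron-dependent dioxygenases, among them collagen hydroxylases and enzymes that demethylate histones and DNA. Interferon response genes, which come up repeatedly below, are induced when cells sense interferons or foreign nucleic acid, and encode antiviral enzymes, sensors and antigen-presenting proteins.

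With vitamin C, 81 genes were higher and 5 lower on days 6, 8 and 10 than on days 3, 4 and 5, among 19938 genes tested (0.406% and 0.0251%; limma, adjusted p under 0.05). All values are deposited log2 signals and all differences are on that scale, where 1 is a doubling. The 81 genes that rose had a median difference of 1.39, from 0.86 to 3.10, beside a median of -0.04 over all genes. Of all lists, that of interferon response genes held the most of them, 16. Others were genes of the elastic and basement membrane matrix, E-cadherin, and genes known from nerve cells. The 5 that fell were Lipf, Rgs5, Ptgs2, S100a6 and Spag5. At an unadjusted p under 0.05 there were 2494 genes. Since each day is 1 array, the p-values measure the spread within days 3 to 5 and within days 6 to 10. That spread includes any change over time within each set of days. It does not measure the spread between replicate cultures of the same day. Whether the days came from 1 culture or several is not said in the labels. An exact two-sided permutation test of 3 arrays against 3 cannot go below 0.10.

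The spread of signals differed little between the 6 arrays. Their medians lay between 5.49 and 5.55, and the interquartile range was 2.98, 2.86 and 2.98 on days 3, 4 and 5 and 3.14, 3.17 and 2.93 on days 6, 8 and 10. The wider range of days 6 and 8 thus fell within the later days, and its part in the results was not tested. After a further quantile normalization, which makes the ranges equal, 17 genes passed, all of them higher. The differences stayed about as large: that of Oas2 was 3.10 in either case, and the median of the interferon list, described below, was 1.17 against 1.19. The calls also rest on single days: without day 3, 4, 8 or 10 none passed (1510, 2727, 1456 and 2842 genes at an unadjusted p under 0.05), whereas 341 passed without day 5 and 254 without day 6. Without any 1 of the days, all 86 genes kept the sign of their difference. This was fixed in advance, since late and early days overlapped in none of the 86.

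**Figure D1:**
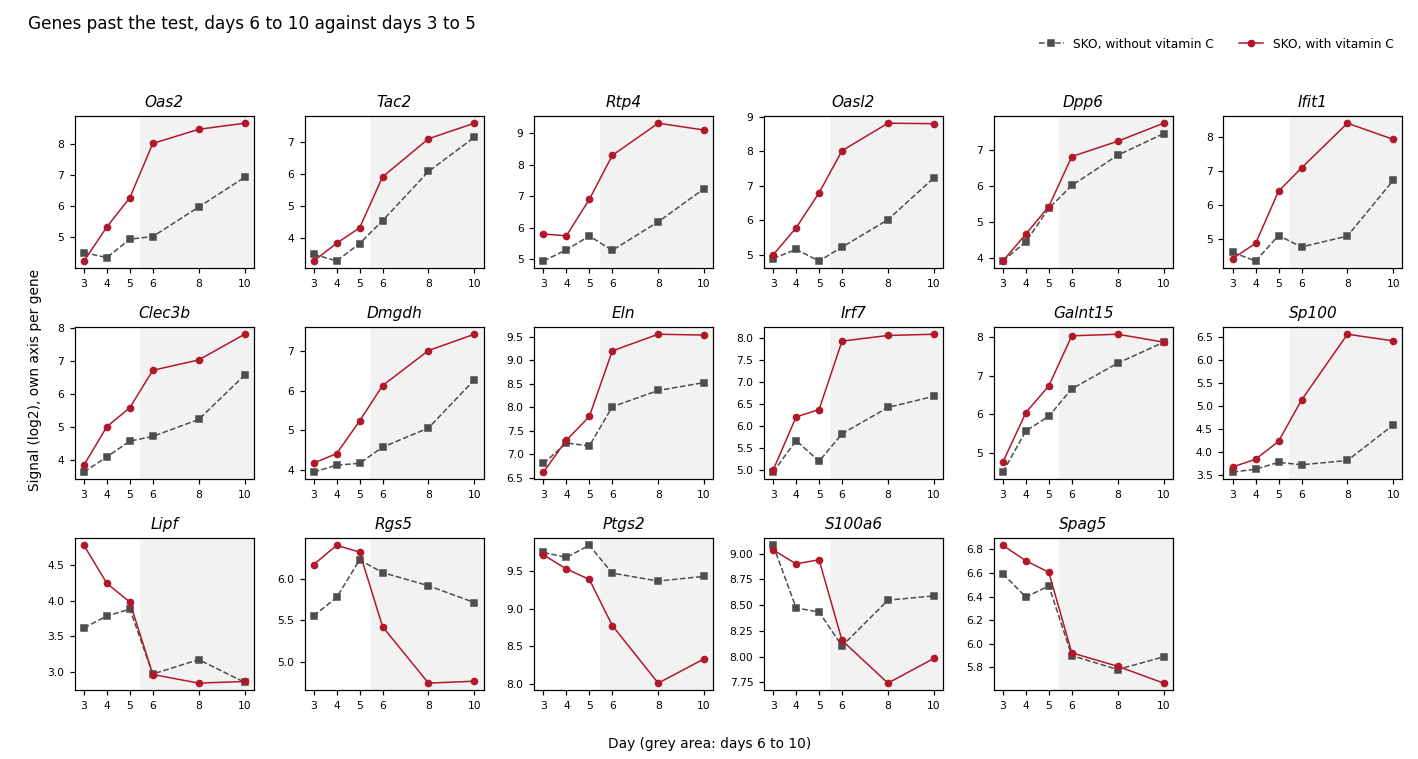
Log2 signal by day of the 12 genes that rose most and the 5 that fell among those past the test, with vitamin C (red circles) and without (grey squares); each point is 1 array and each panel has its own axis. With vitamin C no early day reaches the range of days 6 to 10 in any panel, and Rgs5 goes from 6.17 on day 3 to 4.77 on day 10, beside 5.55 and 5.71 without vitamin C.

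Oas2, an enzyme that makes the 2-5A signal for RNA decay, had the largest rise. Its signal was 4.24, 5.34 and 6.28 on days 3, 4 and 5 and 8.02, 8.48 and 8.67 on days 6, 8 and 10, a difference of 3.10 ± 0.40 (SE; 8.60-fold, adjusted p = 0.0210, limma). It climbed at every step, and the highest early day stayed well under the lowest late day. Rtp4, an interferon-induced receptor transporter, stood at 5.80, 5.74 and 6.90 and then at 8.29, 9.31 and 9.10 (2.75 ± 0.33, adjusted p = 0.0159). Oasl2, a relative of Oas2, went from 5.0, 5.78 and 6.80 to 8.02, 8.82 and 8.81 (2.69 ± 0.38, adjusted p = 0.0284). Both had levelled off by day 8.

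Among the regulators and sensors of the response, Irf7, a transcription factor that amplifies interferon production, had signals of 4.99, 6.20 and 6.36 and then 7.92, 8.05 and 8.07. Its difference was 2.17 ± 0.30 (adjusted p = 0.0284), and the largest step was that between days 5 and 6. The RNA sensors Ifih1 (MDA5), Ddx58 (RIG-I) and their relative Dhx58 (LGP2) rose by 1.65 ± 0.30, 1.32 ± 0.24 and 1.36 ± 0.23 (adjusted p = 0.0461, 0.0461 and 0.0383). The effectors that rose included Ifit1, which binds foreign RNA ends (2.59 ± 0.46, adjusted p = 0.0443), the tetherin gene Bst2 (1.43 ± 0.22, adjusted p = 0.0338) and the dynamin-like Mx2 (1.42 ± 0.21, adjusted p = 0.0284). Sensors, a regulator and effectors were thus all among the genes that passed.

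Of 55 interferon response genes measured, 16 passed the test and all rose, against 0.406% of all genes higher and 0.0251% lower. This list was chosen with earlier results of these data known. Its median difference was 1.19, against -0.04 over all genes. In 54 of the 55 the difference was above 0, against 8669 of all 19938 genes. Every late day lay above every early day in 41 genes of the list, against 7.71% of all genes. In no list gene did every late day lie below every early day, against 10.2% of all genes. The others of the 16 were Parp14, Samd9l, Trim30a, Lgals3bp, Oas3 and Oas1b. Strong genes of the list that missed the threshold were Ifi203 (2.39 ± 0.50, adjusted p = 0.0668), Ifit3 (2.28 ± 0.49, adjusted p = 0.0720), Gbp3 (2.25 ± 0.48, adjusted p = 0.0703) and Usp18, a brake on the interferon receptor (2.12 ± 0.47, adjusted p = 0.0770). Some members differed little: Cxcl10, Cxcl9 and Ccl5, chemokines of the interferon response, had differences of 0.06, -0.11 and 0.04, and Isg20, a nuclease, of 0.05. None of these 4 genes, which were picked out after their values were seen, passed. Genes past the test outside the list include others known as interferon-induced or of the same families, such as Sp100, Ifi27l2a, Ifi205, Gbp7, Gbp9 and Gbp11, which were singled out after their values were seen.

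The course of the list was gradual rather than a single jump. Its median change from day 3 was 0.24, 0.69, 1.06, 1.55 and 1.67 for days 4, 5, 6, 8 and 10. Days 3 and 5 against day 10 gave a median difference of 1.29, and day 4 against days 6 and 8 gave 1.28. These 2 medians were alike, although the contrasts span unlike lengths of time. An earlier analysis of these arrays set the 2 sets of days apart for other genes. With a covariate for days 3, 5 and 10, the median late minus early difference of the list was 1.28, against 1.19 without it. Under that covariate 31 genes of the list passed, against 16 (limma, adjusted p under 0.05). The part of that division in the rise was not tested beyond this. Class I antigen presentation genes, many of which interferon induces, had a median difference of 0.62; 7 of 13 were higher on every late day than on every early day (7.71% of all genes), and none passed. Among them were the class I gene H2-Q4 (1.40 ± 0.28, adjusted p = 0.0584), the peptide transporter Tap1 (0.68 ± 0.17) and the proteasome subunit Psmb10 (0.77 ± 0.18).

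**Figure D2:**
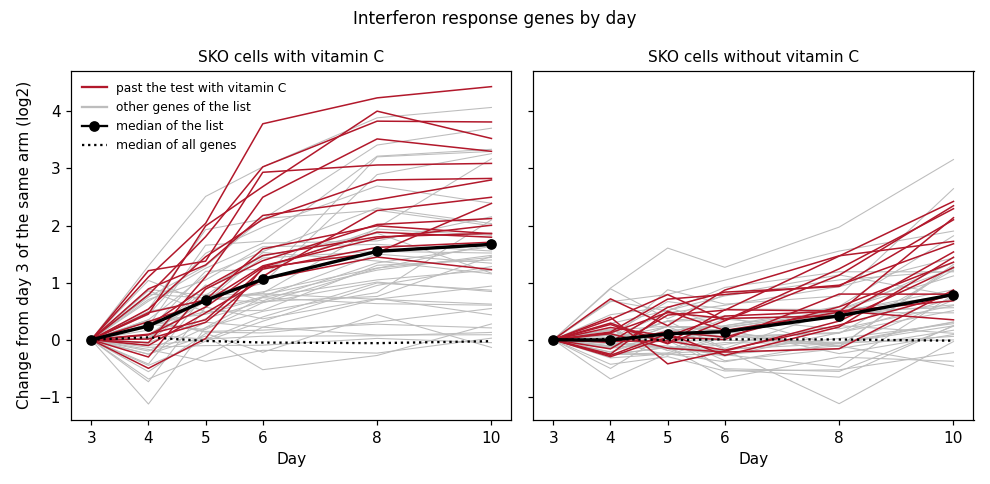
Change from day 3 of the same arm (log2) for the 55 interferon response genes, with vitamin C on the left and without on the right; each thin line is 1 gene, red lines are the 16 past the test with vitamin C, the thick black line is the median of the list and the dotted line the median of all genes. With vitamin C the list median reaches 1.67 on day 10, and without it 0.79, with most of the untreated change after day 6.

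Without vitamin C the same list had a median difference of 0.43. Its change from day 3 was -0.01, 0.10, 0.14, 0.42 and 0.79 for the same days, so it began later and reached less by day 10. There, 17 of the 55 genes were higher on every late day than on every early day (8.48% of all genes) and 1 was lower (8.05%). The difference of the course between the arms was above 0 in 54 of 55 genes, against 9596 of all 19938, with a median of 0.76. In 36 of the 55 it had an unadjusted p under 0.05 in that direction, against 3.23% of all genes, and in 0 the opposite way, against 4.91%. None of these passed after adjustment over all genes. The daily median of treated minus untreated was 0.09, 0.27, 0.65, 0.97, 1.33 and 0.78 on days 3, 4, 5, 6, 8 and 10, and was thus widest on day 8.

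Macrophage markers also tended to be higher on the later days, though not in step with the interferon list. Their summed signal, on the linear scale, was 1084, 1132 and 1344 on days 3, 4 and 5 and 1550, 1992 and 2291 on days 6, 8 and 10. That of the interferon list was 4760, 7129 and 7952 and then 12607, 15227 and 14881. None of 22 macrophage markers passed; 7 were higher on every late day and 1 lower (7.71% and 10.2% of all genes), and the median difference was 0.52. The defining marker Adgre1 had a signal of 3.50 on day 3, 3.52 on day 6 and 4.98 on day 10. The lysozyme gene Lyz2 stood at 5.33, 4.42 and 5.16 and then at 5.78, 6.33 and 7.37. On day 6, when the interferon list had gained 1.06, the macrophage list had gained 0.07. By days 8 and 10 the macrophage list had gained 0.54 and 0.92. Its median signal was 4.48 on day 3 and 4.68 on day 6. These values lie near 4.52, the cut of the filter on low signal, so small changes may be hidden. Without vitamin C the macrophage markers had a median difference of 0.45, close to that with it, and their median difference between the arms was -0.0019. A part of macrophages in the level of other genes was not tested. In whole cultures, fewer cells of a type and less RNA per cell cannot be told apart.

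The promoters of Ifit1 and Trim30a, which both rose, are shown because they carry the interferon-stimulated response element (ISRE), which is common in the list. They come from RefSeq (GRCm38.p6) and are read 5′ to 3′ on the gene's strand, with the element in capitals. The Ifit1 stretch is chr19:34640740-34640858 on the plus strand and the Trim30a stretch is chr7:104465175-104465274 on the minus strand.
Ifit1: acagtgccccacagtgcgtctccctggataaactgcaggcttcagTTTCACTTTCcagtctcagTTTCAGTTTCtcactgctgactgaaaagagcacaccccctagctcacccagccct
Trim30a: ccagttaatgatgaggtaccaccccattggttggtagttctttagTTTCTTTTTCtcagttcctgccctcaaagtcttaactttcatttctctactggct
Ifit1 holds 2 copies, the first starting 104 bases before the transcription start, and Trim30a holds 1. The search, for GAAANNGAAA on either strand within 250 bases before to 50 bases after the start, matched 42 of the 55 genes to a promoter and found the element in 19 of them (45.2%). It was found in 3.99% of 27025 genes. Of the 31 matched genes whose late days all lay above the early ones, 15 held it. A match is a run of letters, and binding was not measured.

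Among genes past the test outside the interferon response, Tac2, the gene of the peptide hormone neurokinin B, rose most. Its signal was 3.30, 3.85 and 4.32 on days 3, 4 and 5 and 5.90, 7.09 and 7.57 on days 6, 8 and 10 (3.03 ± 0.38, adjusted p = 0.0175). It rose at every step, and its untreated course was close behind (2.37 ± 0.52). Clec3b (tetranectin) rose by 2.39 ± 0.40, Dmgdh, a mitochondrial enzyme of choline breakdown, by 2.24 ± 0.34, and Galnt15, a glycosyltransferase, by 2.14 ± 0.38 (adjusted p = 0.0364, 0.0304 and 0.0461). Dpp6, a partner of potassium channels, rose by 2.61 ± 0.35 (adjusted p = 0.0210), although 1 of its 2 probes went the other way.

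Some of the genes that passed are known from the nervous system; they were picked out after their values were seen, and how common such genes are was not tested. They include Tnr (tenascin R), Reln (reelin), Ntn1 (netrin 1), Nlgn3 (neuroligin 3), Dner, Nos1 (neuronal nitric oxide synthase) and Gfra2, a receptor for neurturin. Tnr rose by 1.5 ± 0.18 (adjusted p = 0.0159) and Reln by 1.19 ± 0.21 (adjusted p = 0.0461). Ntn1 had signals of 6.19, 6.70 and 7.10 and then 7.86, 8.08 and 8.22 (1.39 ± 0.23, adjusted p = 0.0364). The list of neural markers, which holds structural and transcription factor genes of neurons and glia, had no gene past the test among 18. In it 3 genes were higher and 2 lower on every late day, against 7.71% and 10.2% of all genes, and the median difference was -0.14.

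Matrix genes were divided. Eln, which encodes elastin, had signals of 6.63, 7.30 and 7.81 on days 3, 4 and 5 and 9.20, 9.55 and 9.54 on days 6, 8 and 10. Its difference was 2.19 ± 0.27 (4.55-fold, adjusted p = 0.0159), and it was nearly level from day 8 to day 10. Col15a1, a collagen of the basement membrane zone, stood at 5.78, 6.52 and 6.58 and then at 7.76, 7.95 and 7.71 (1.51 ± 0.22, adjusted p = 0.0284). These 2 were the only genes past the test among 45 of the collagen and matrix list, whose median difference was 0.12. In that list 11 genes were higher and 3 lower on every late day, against 7.71% and 10.2% of all genes. The fibrillar collagen gene Col1a1 had signals of 12.39, 12.42 and 11.93 and then 12.14, 11.74 and 11.58, a difference of -0.43 ± 0.21 that did not pass (adjusted p = 0.438). Of 24 collagen modification genes none passed, and the median was -0.15.

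Epithelial and pluripotency genes moved unevenly. Cdh1, which encodes E-cadherin, had signals of 4.76, 5.03 and 5.28 on the early days and 5.96, 6.24 and 6.35 on the late ones, rising at every step (1.16 ± 0.19, adjusted p = 0.0364). It was the only epithelial gene of 37 that passed; the median of the list was 0.03, with 6 genes higher and 2 lower on every late day (7.71% and 10.2% of all genes). Epcam, an epithelial adhesion molecule, stood at 4.36, 4.76 and 5.40 and then at 5.43, 7.0 and 7.38 (1.76 ± 0.43, adjusted p = 0.108). Its day 6 value was level with day 5. The protease inhibitor Spint2 (1.25 ± 0.25, adjusted p = 0.0624) and the membrane protease St14 (1.02 ± 0.20, adjusted p = 0.0584) were also higher on every late day without passing. The list median was 0.41 for day 10 against days 3 and 5 but -0.22 for days 6 and 8 against day 4. These contrasts span unlike lengths of time.

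Nanog, a core pluripotency factor, had signals of 5.41, 5.89 and 5.54 on days 3, 4 and 5 and 5.62, 6.49 and 7.35 on days 6, 8 and 10 (0.88 ± 0.35, adjusted p = 0.329). Its day 6 value lay below day 4, so late and early days overlapped, and the gain lay on days 8 and 10. Of 27 pluripotency factors none passed, and the median difference was -0.01. Tfcp2l1, a factor of naive embryonic stem cells, came nearest, with 5.07, 6.30 and 6.96 and then 7.91, 8.22 and 7.95 (1.91 ± 0.37, adjusted p = 0.0561). Of 32 stem cell markers and effectors none passed, 10 were higher and 2 lower on every late day (7.71% and 10.2% of all genes), and the median was 0.37. Fbxo15, a target of Oct4 and Sox2, went from 3.49 on day 3 to 7.67 on day 10 and was higher at every step (2.58 ± 0.54, adjusted p = 0.0661). Gdf3, a growth factor of stem cells, stood at 4.58 on day 3 and 7.11 on day 10, and Dppa5a at 4.30 and 5.56.

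The octamer ATTTGCAT, the classical site of Oct4 and its relatives, was searched on either strand in the same promoter window. It was found in 2 of 41 matched genes of the pluripotency and stem cell lists (4.88%) and in 1.97% of all genes. Of the 8 matched genes whose late days all lay above the early ones, 0 held it. Zfp42 (Rex1), 1 of these 2, is shown because it is a long-used stem cell marker; its signal was 4.43 on day 3 and 5.32 on day 10. The stretch is chr8:43307143-43307240 on the minus strand, with the octamer in capitals 186 bases before the start.
Zfp42: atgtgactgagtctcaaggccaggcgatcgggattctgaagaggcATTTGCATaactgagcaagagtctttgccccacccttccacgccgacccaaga
The gene did not pass (0.45 ± 0.28, adjusted p = 0.550).

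The transduced factors did not pass; which of the viral and endogenous transcripts their probes read was not tested. Pou5f1 had signals of 11.31, 12.16 and 11.83 and then 12.49, 12.39 and 11.69 (0.43 ± 0.26, adjusted p = 0.551). Sox2 stood at 5.15, 5.43 and 5.60 and then at 5.61, 5.60 and 6.28 (0.44 ± 0.22, adjusted p = 0.453), and Klf4 differed by -0.01 ± 0.21. The day 10 value of Pou5f1 was below that of day 4. Among other genes followed in reprogramming, the DNA demethylation genes Tet1, Tet2 and Tet3 differed by 0.67 ± 0.21, 0.76 ± 0.33 and 0.49 ± 0.32. The fibroblast surface marker Thy1 differed by 0.10 ± 0.32, Myc by -0.42 ± 0.21, and the senescence genes Cdkn2a and Cdkn2b by 0.06 ± 0.19 and -0.17 ± 0.16. The histone demethylase genes Kdm2a and Kdm2b differed by 0.15 ± 0.19 and 0.16 ± 0.17. None of these 9 genes passed.

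**Figure D3:**
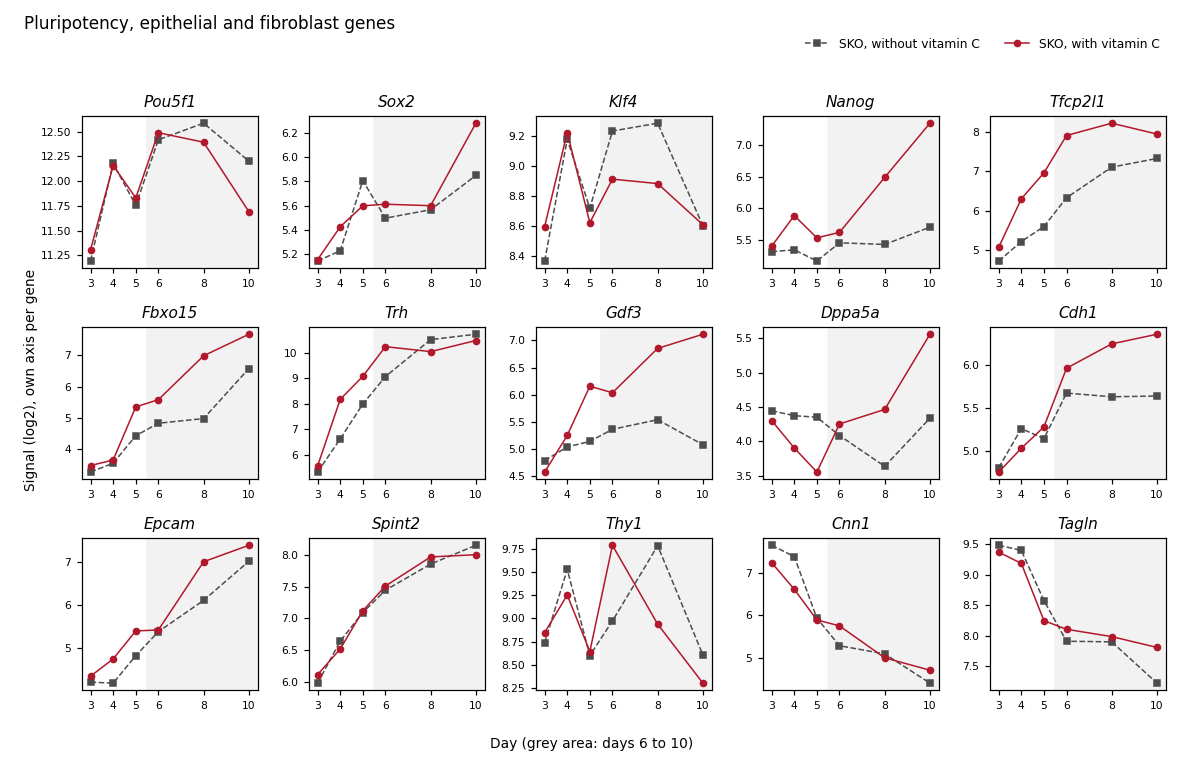
Log2 signal by day of the 3 transduced factors and of pluripotency, epithelial, fibroblast and contractile genes, with vitamin C (red circles) and without (grey squares); each point is 1 array and each panel has its own axis. With vitamin C, Nanog stays between 5.41 and 5.89 through day 6 and reaches 7.35 on day 10, while Cnn1 goes from 7.25 to 4.71.

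Among the genes that fell, Rgs5, a regulator of G protein signalling known from pericytes, had signals of 6.17, 6.40 and 6.32 on days 3, 4 and 5 and 5.42, 4.75 and 4.77 on days 6, 8 and 10. Its difference was -1.32 ± 0.21 (adjusted p = 0.0364). Without vitamin C its signal was 5.55, 5.77 and 6.23 and then 6.07, 5.92 and 5.71 (0.05 ± 0.19), so late and early days overlapped there. The arms differed by -1.36 ± 0.21, which did not pass over all genes (adjusted p = 0.240). Ptgs2, the inducible cyclooxygenase, stood at 9.71, 9.53 and 9.39 and then at 8.78, 8.01 and 8.33 (-1.17 ± 0.21, adjusted p = 0.0461). S100a6, a calcium-binding protein of proliferating fibroblasts, fell by 1.0 on the log2 scale (SE 0.17, adjusted p = 0.0417). Lipf, a lipase gene with a low signal here, fell from 4.78, 4.25 and 3.98 to 2.96, 2.84 and 2.86 (-1.45 ± 0.21, adjusted p = 0.0284).

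Spag5, a protein of the mitotic spindle, was the only cell division gene past the test. Its signal was 6.83, 6.70 and 6.61 and then 5.92, 5.81 and 5.66, lower at each step (-0.92 ± 0.17, adjusted p = 0.0461). The other mitosis genes pointed the same way: the difference was below 0 in all 61, with a median of -0.60 and a range from -1.01 to -0.13. Among all 19938 genes it was above 0 in 8669. In 43 of the 61 every late day lay below every early day, against 10.2% of all genes. Aspm, a spindle pole protein, came nearest to passing (-1.01 ± 0.20, adjusted p = 0.0541), followed in size by Nek2, a centrosome kinase (-0.92 ± 0.20, adjusted p = 0.0715). Without vitamin C the median was -0.52, with 41 of 61 lower on every late day (8.05% of all genes), and the median difference between the arms was -0.07. The change was larger from days 3 and 5 to day 10 (-0.84) than from day 4 to days 6 and 8 (-0.27). The first of these contrasts also spans the longer time. Of 55 DNA replication genes 14 were lower on every late day and none higher (10.2% and 7.71% of all genes). Their median was -0.35, and none passed; Rrm2, a subunit of ribonucleotide reductase, differed by -0.67 ± 0.21.

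Contractile genes, the actin and myosin machinery of stressed fibroblasts and smooth muscle, had a median difference of -0.48 over 38 genes, and none passed. On every late day 11 were lower and 2 higher, against 10.2% and 7.71% of all genes. Cnn1 (calponin) had signals of 7.25, 6.62 and 5.89 and then 5.75, 5.00 and 4.71, lower at each step (-1.44 ± 0.34, adjusted p = 0.0986). Tagln (SM22) stood at 9.37, 9.18 and 8.25 and then at 8.11, 7.99 and 7.81 (-0.97 ± 0.26, adjusted p = 0.149). Without vitamin C the median was -0.56, 20 genes were lower on every late day (8.05% of all genes), and Cnn1 differed by -2.07 and Tagln by -1.47. The difference between the arms was above 0 in 30 of the 38 genes, against 9596 of all 19938, with a median of 0.16.

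The CArG box, bound by serum response factor in actin and smooth muscle genes, was searched in the same promoter window on either strand. It was found in 8 of 32 matched contractile genes (25%) and in 1.81% of all genes. The stretches of the skeletal actin gene Acta1 (chr8:123894794-123894893, minus strand) and the cardiac actin gene Actc1 (chr2:114052868-114052967, minus strand) are shown as members of the list that hold it, with the box in capitals.
Acta1: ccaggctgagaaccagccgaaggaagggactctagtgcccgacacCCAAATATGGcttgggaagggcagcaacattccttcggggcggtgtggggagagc
Actc1: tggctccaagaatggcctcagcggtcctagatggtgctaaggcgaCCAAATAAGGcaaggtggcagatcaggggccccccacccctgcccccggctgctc
The signal of Acta1 was 7.35, 7.23 and 6.42 and then 6.77, 6.26 and 5.79 (-0.72 ± 0.29, adjusted p = 0.332), so late and early days overlapped. Of the 9 matched genes lower on every late day, 2 held the box.

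**Figure D4:**
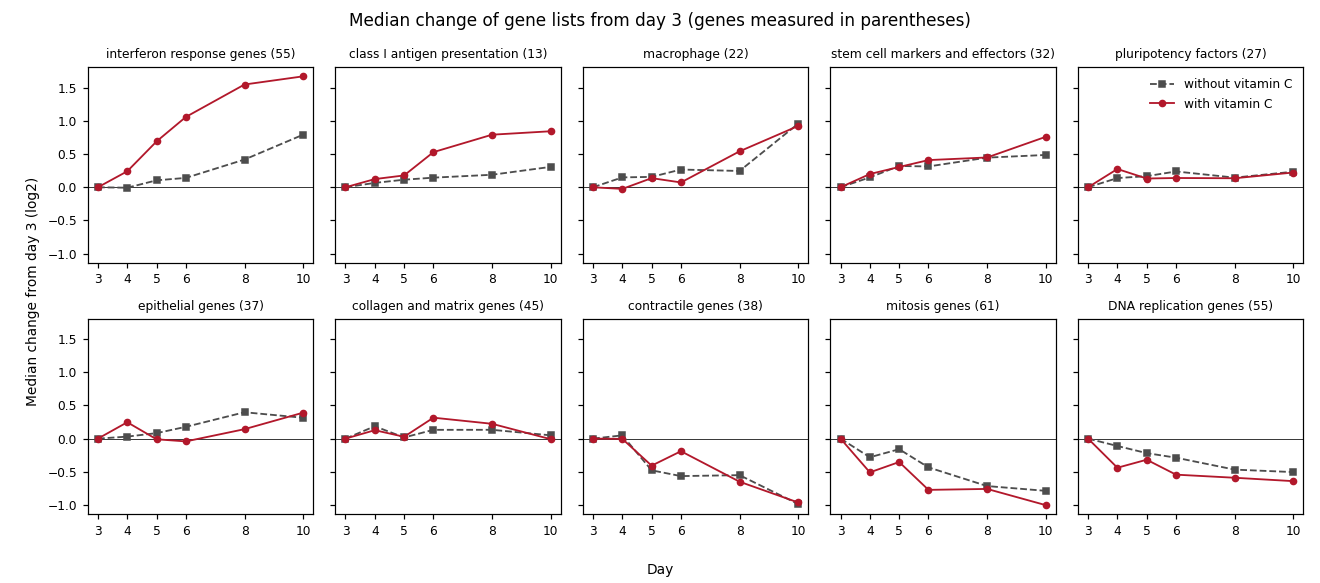
Median change from day 3 (log2) of 10 gene lists by day, with vitamin C (red circles) and without (grey squares); the number of genes measured is in parentheses and all panels share 1 axis. The interferon list parts between the arms from day 4 on (0.24 with and -0.01 without vitamin C on that day). The contractile and mitosis lists go down in both arms, to -0.96 and -1.0 on day 10 with vitamin C.

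Day by day, most of the 81 genes that rose began lowest on day 3 (67 genes) and were highest on day 8 (37) or day 10 (40). The largest step was that from day 5 to day 6 in 60 of them. The median steps were 0.31 from day 3 to 4, 0.34 to day 5, 0.86 to day 6, 0.36 to day 8 and 0.0015 to day 10. Day 6 is the first of the later days, so a large step there favours a gene in the comparison. Of the 81, 28 rose at every step, against 211 of all genes (1.06%). Of the 5 that fell, 1, Spag5, fell at every step, against 118 of all genes (0.592%). A course that rises or falls at every step also parts the late from the early days. The comparison by which these genes were chosen thus favours such courses, and the shares are not separate support.

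Among genes that climbed at every step, the largest change from day 3 to day 10 was in Cfb, complement factor B. Its signal was 4.64, 5.11, 6.46, 6.98, 8.94 and 9.40 over the 6 days, and without vitamin C 4.72, 4.76, 5.46, 5.46, 5.35 and 6.58. Late and early days differed by 3.04 ± 0.57 (adjusted p = 0.0515), just outside the threshold. Rnase1, a secreted ribonuclease, went from 5.48 to 9.77 and Avil (advillin) from 5.31 to 9.49. Genes that went down at every step included Tspan2, a tetraspanin (7.74 to 5.61), Phgdh, of serine synthesis (7.62 to 5.66), and Cdh18, a cadherin (7.01 to 4.76). None of these 6 genes passed the comparison of late with early days.

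A second shape set days 6 and 8 apart from all 4 other days. Of 19938 genes, 1817 had both days above the other 4 and 2535 had both below. How many genes would take this shape by chance was not tested. Among the widest above were Wnk4, a kinase of salt transport (5.58, 7.03, 6.75, 8.29, 8.05 and 7.26), and Arsb, a lysosomal sulfatase (6.62, 7.80, 7.21, 8.78, 8.95 and 7.98). Among the widest below was Mrpl36, a mitochondrial ribosomal protein (6.49, 6.34, 6.29, 5.40, 5.59 and 6.49). Without vitamin C the signals were 5.58, 6.51, 6.29, 7.07, 7.91 and 7.19 for Wnk4 and 6.55, 7.72, 7.05, 8.11, 8.70 and 7.93 for Arsb. For Mrpl36 they were 6.55, 6.12, 6.57, 6.03, 6.06 and 6.38. In both arms the day 4 signal of Wnk4 and Arsb was also above that of days 3 and 5. That of Mrpl36 with vitamin C lay between those of days 3 and 5. Days 6 and 8 were also the 2 arrays with the widest signal range, and the part of that range in this shape was not tested. The part of a division of days 3, 5 and 10 from the other days, described in an earlier analysis, was not tested either.

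The 86 genes were then followed in the arm without vitamin C. All 81 that rose had a difference above 0 there, with a median of 0.86, and 54 of them were higher on every late day (8.48% of all genes). Of the 5 that fell, 4 were below 0. No gene passed in the untreated arm (0%; limma, 2280 at an unadjusted p under 0.05). A gene past the threshold in 1 arm only is not shown to differ between arms, so the difference was tested itself. Over all genes none passed (0%; limma with the day as a factor, 1623 at an unadjusted p under 0.05, smallest adjusted p = 0.240). For the 81, the arm difference was above 0 in 75, but these were chosen by the treated course, which favours that sign. Genes with nearly the same course in both arms included Gfra2 (1.39 ± 0.25 with and 1.51 with no vitamin C), Tril, a Toll-like receptor partner (1.57 and 1.47), and Serpina3n, a protease inhibitor (1.37 and 1.27).

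**Figure D5:**
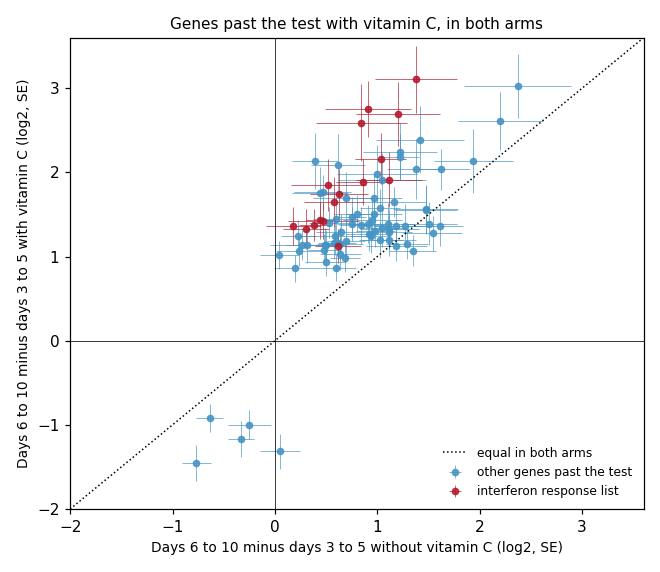
Difference between days 6, 8 and 10 and days 3, 4 and 5 (log2, bars are SE) for each gene past the test with vitamin C, in treated cells (vertical) against untreated cells (horizontal); red points belong to the interferon response list and the dotted line marks equal differences. All 16 red points lie above the line, but the genes were chosen by the treated course, which favours that side.

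By moderated t, the 2 genes nearest to a difference between the arms in the upward direction were Ifi27l2a, an interferon-induced gene (1.47 ± 0.22), and Itga11, a collagen-binding integrin (1.29 ± 0.19). The signal of Itga11 with vitamin C was 6.31, 6.47 and 5.80 and then 6.40, 6.72 and 6.97, and without it 7.06, 7.28 and 6.42 and then 6.04, 6.24 and 6.11. It was lower with vitamin C on each early day and higher on each late day. In the downward direction the 4 nearest were Tac1, the substance P gene (-1.49 ± 0.20), Rgs5, the keratin gene Krt16 (-0.97 ± 0.17) and Tslp, a cytokine (-1.85 ± 0.33). Krt16 had a low signal, at most 4.32 on any SKO array, as did Tslp with vitamin C, at most 4.69. The signal of Tslp with vitamin C was 4.69, 3.78 and 4.06 and then 3.44, 3.25 and 2.83, and without it 4.17, 4.25 and 5.19 and then 5.55, 5.47 and 5.14. Its 2 courses thus ran apart. The adjusted p of these 6 genes lay between 0.240 and 0.283. With the day as a straight line 7 genes passed, Plac8 and Slfn2 with the higher slope under vitamin C and Itga4, Gpr50, Csn1s1, Akr1c18 and Kcnh5 with the lower.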

How the data were processed

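The authors deposited 1 log2 signal per probe and array, made with RMA and Partek per the submitters' processing notes; no tool version is given in these sources. The log2 scale was read from the values. RMA compresses differences of weak genes. Of 28853 probes, 21789 had 1 gene symbol, 1621 several and 5443 none in the platform annotation; the probe with the highest mean represented a gene, giving 19938 genes, 19856 of them found in RefSeq (GRCm38.p6). Genes measured only by shared probes were left out. Precision is limited by the number of arrays, 1 a day and arm.

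Late minus early was fitted with limma 3.58.1 in R 4.3.3 (lmFit, eBayes) on the 6 treated arrays (4 residual degrees of freedom), with Benjamini-Hochberg adjustment over all genes. The difference between arms was fitted on the 12 SKO arrays with each day as a block, which also left 4 residual degrees of freedom. The labels pair the arms by day; deviations from the mean of each arm's early or late days correlated between arms with r = 0.504, 0.625, 0.507, 0.159, -0.021 and 0.554 on days 3, 4, 5, 6, 8 and 10. On simulated data with 200 genes changed, the first test recovered 45% of changes of 1 and 90% of changes of 2 on the log2 scale, with 2.88% false calls, and the second 43%, 94% and 4.86%; simulated noise was independent between arrays.

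The 33 gene lists (907 of 974 entries measured) and the genes to follow were chosen with earlier results of these data known, and lists are described by counts and medians only. Named genes were the 12 higher and up to 12 lower of largest difference past the test, or the 6 of largest moderated t where fewer passed; the 6 of largest t between arms each way; the 6 of largest change per course shape; up to 4 a list each way; and a set of reprogramming genes. Others are said to have been chosen after their values were seen, or complete a count. Alternatives were a further quantile normalization, median centring, a filter on low signal, other variance settings, array weights, mean of probes, a minimum of 1.5-fold, each day left out, and other codings of time or pairing. Promoters were searched with Python 3.11.15; figures used matplotlib 3.10.9.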

Additional observations from a re-analysis of the deposited data

How the results depend on the processing

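The count of 86 genes with vitamin C was 17 after a further quantile normalization, 392 with array weights, 518 with the day as a straight line, 200 with the spread shared with the untreated arm and 287 with a covariate for days 3, 5 and 10, a division described in an earlier analysis. Leaving out 1 day gave 0 to 341 calls. It lay between 81 and 89 in the other 6 settings, and all 86 kept their sign in every setting (82 of the 82 tested with the filter on low signal). With 1 day left out the sign could not turn, since late and early days overlapped in none of the 86. Interferon calls went from 16 to 5 after quantile normalization and up to 36 with a straight line; the cause was not tested. The difference between the arms gave 0 calls, also with no replicate block (0), except 7 with a straight line; leaving out both arrays of a day gave 0 or 1 (Iigp1, without day 6). The pairing by day changed no other call. The untreated arm gave 0 calls, 131 with the covariate and 0 to 78 with 1 array left out; both were added after the data were seen. Among the named genes, differences near 0 that had not passed turned sign. Cdkn2a was -0.00337 after quantile normalization, -0.0028 with the covariate and -0.093 to 0.165 with 1 day left out. Thy1 was -0.077 per day with a straight line, -0.166 with the covariate and -0.294 to 0.449 with 1 day left out. Klf4 was 0.129 with array weights and -0.121 to 0.192 with 1 day left out. Cxcl9 was 0.029 per day, 0.048 with the covariate and -0.338 to 0.063 with 1 day left out, and Cxcl10 was -0.020 to 0.143.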

Other observations

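Complement and related defence genes had a median difference of 0.56 over 17 genes, none of which passed. Lbp, which binds bacterial lipopolysaccharide, stood at 6.06, 7.50 and 9.28 on days 3, 4 and 5 and at 10.13, 10.70 and 10.59 on days 6, 8 and 10 (2.86 ± 0.59, adjusted p = 0.0652), and at a like difference of 3.13 without vitamin C. C4b, a complement component, had 4.37, 4.23 and 4.75 and then 5.18, 6.32 and 7.0 (1.71 ± 0.37, adjusted p = 0.0719). Among secreted factors of senescent cells, Igfbp5 rose (0.87 ± 0.16, adjusted p = 0.0492). The chemokine gene Ccl8 (2.00 ± 0.38, adjusted p = 0.0515) and the cytokine gene Il6 (-1.18 ± 0.29, adjusted p = 0.111) lay on opposite sides; the median of the 35 genes was 0.03. The imprinted gene Dlk1 also rose (1.07 ± 0.19, adjusted p = 0.0417), in a list with a median of 0.16.

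Sterol and fatty acid synthesis genes had a median of -0.38 over 27 genes, against -0.16 without vitamin C. On every late day 8 were lower and 0 higher (10.2% and 7.71% of all genes). In all 27 the difference between the arms was below 0, while it was above 0 in 9596 of all 19938 genes. It had an unadjusted p under 0.05 (limma) in 2 of the 27, against 4.91% of all genes in that direction. Idi1, of isoprenoid synthesis, differed by -0.57 ± 0.21 and Elovl6, a fatty acid elongase, by -0.65 ± 0.22, and none of the list passed. Oxidative phosphorylation genes had a median of -0.16, p53 targets of -0.17, unfolded protein and ATF4 genes of -0.16, glycolysis and HIF targets of 0.04, chromatin dioxygenases and DNA methyltransferases of 0.06, TGF-beta and BMP genes of 0.05, mesenchymal transcription factors of -0.03, fibroblast markers of 0.14, and cell cycle inhibitors and D cyclins of 0.01. None of their genes passed. The 9 marker lists besides macrophages (endothelial, skeletal muscle, neural, erythroid, adipocyte, chondrocyte and osteoblast, trophoblast, endoderm and germ cell) had medians from -0.37 (erythroid) to -0.02 (endothelial), also with none past the test.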
